A study of Mus musculus with 2 samples.

Results

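The Mir379 to Mir410 array is a row of microRNA (miRNA) genes within the imprinted Dlk1-Dio3 region of distal mouse chromosome 12. Its members were chosen by symbol alone: 38 named genes were looked up in GENCODE M21, and all 38 were among the 2202 miRNA genes counted in each file. They span 38.9 kb of mm10, from 109709060 to 109747960. Of these genes, 37 lie on the plus strand, and Mir299b lies on the minus strand within Mir299a. The libraries came from adrenal glands of male B6CASTF1/J mice, a cross between the C57BL/6 and CAST/EiJ strains, taken at 10 days of age. The study had 1 group of 2 libraries, numbered as biological replicates 1 and 2 and made from separately labelled males that share a donor record. There was no second condition, and the labels name no treatment or altered allele. Whether glands were pooled is not stated. With 1 library on each side, p-values measure only the difference between these 2 libraries.

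In the Dlk1-Dio3 region the protein-coding genes are expressed from the paternal chromosome, and the long non-coding RNAs Meg3, Rian and Mirg, with the miRNAs that lie among them, from the maternal one. The array is thought to be cut from long maternal transcripts, each hairpin giving a 5p and a 3p arm, of which one or both are loaded into Argonaute. A loaded miRNA finds its targets mainly through its seed, bases 2 to 8. The array is found in placental mammals, is best known from brain, and mice that lack it adapt poorly to the fall in nutrient supply after birth.

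RefSeq (GRCm38.p6) held mature sequences for all 38 members, 71 arms in all with both arms for 33 members, 36 of them 5p, 34 of them 3p and 1 without an arm label. These arms carried 64 distinct seeds. Among these arms, 7 seeds were shared by different members, which involved 13 members, and for these 7 seeds 0 arms outside the array in the same table had them. The arms below are those of Mir379 and Mir411, of the groups that share a seed and of some that nearly share one. They are printed 5′ to 3′ with the seed in capitals. The first group holds Mir379 and Mir411, which start the array and are its most abundant genes. It also holds Mir1193, which starts 6.61 kb from the start of Mir379 and ranks 23 by mean level.
miR-379-5p: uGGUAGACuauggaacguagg
miR-1193-5p: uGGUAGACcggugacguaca
miR-411-5p: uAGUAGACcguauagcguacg
miR-379-3p: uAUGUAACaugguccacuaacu
miR-411-3p: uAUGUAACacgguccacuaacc

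Counting bases from the 5′ end, miR-379-3p and miR-411-3p differ at 2 positions, U10C and U22C, both outside the seed. Their 5p arms differ at 7 positions, of which G2A lies in the seed, so miR-411-5p has a seed of its own. miR-1193-5p has the seed of miR-379-5p but differs from it at 10 of the 20 bases compared. The second group is the miR-376 genes, whose primary transcripts are a textbook case of A-to-I editing by ADAR enzymes, and the pair miR-381 and miR-300.
miR-376b-5p: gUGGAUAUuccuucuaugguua
miR-376c-5p: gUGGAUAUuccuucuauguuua
miR-376a-5p: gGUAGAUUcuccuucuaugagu
miR-376b-3p: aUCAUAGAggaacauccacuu
miR-376a-3p: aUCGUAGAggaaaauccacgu
miR-381-3p: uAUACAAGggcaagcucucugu
miR-300-3p: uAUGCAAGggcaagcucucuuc

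The 5p arms of miR-376b and miR-376c differ at 1 base, G19U. Between the 3p arms of miR-376b and miR-376a there are 3 differences, A4G, C13A and U20G, and between miR-381-3p and miR-300-3p also 3, A4G, G21U and U22C. In both pairs A4G lies in the seed. The other shared seeds are shown with the arms of the 2 genes of each pair next to each other.
miR-1197-5p: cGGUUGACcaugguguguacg
miR-758-5p: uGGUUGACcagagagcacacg
miR-494-5p: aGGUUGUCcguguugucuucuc
miR-410-5p: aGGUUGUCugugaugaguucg
miR-496a-5p: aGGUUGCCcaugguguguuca
miR-453: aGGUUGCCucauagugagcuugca
miR-299a-3p: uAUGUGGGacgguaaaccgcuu
miR-299b-3p: uAUGUGGGacgguaaacc

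The letters GGUU, with which several of these seeds begin, occurred in 17 of 36 5p arms of the array (47.2%) and in 72 of 661 other mouse 5p arms (10.9%). GGUC occurred in 9 of 34 3p arms of the array (26.5%) and in 47 of 675 others (6.96%), and ACAC in 12 of 34 (35.3%) against 47 of 675 (6.96%). These 3 runs were chosen after the sequences were read, only the arm's own strand was searched, and the shares are descriptions without a test. The genes counted below sum both arms of a hairpin, so the files do not show which arm the reads came from.

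The array held 134646 own-strand counts in replicate 1, which is 4.73% of all counts assigned to miRNA genes (95% Wilson interval 4.71 to 4.76), and 137908 counts or 4.48% (4.45 to 4.50) in replicate 2. The mean share was 4.61% ± 0.18 (SD, n = 2). Intervals and floors cover counting error only, since the files record no molecular identifiers. The share was lower in replicate 2, but with Mir122 left out of the totals it was 4.88% and 4.96%, so the order of the libraries turned. It also turned, to 2.88% and 3.15%, when the 7 members whose hairpins share a run of 18 bases with another were left out of the array. The order held with Mir378a left out of the totals (5.17% and 4.92%) and in counts without strand (5.36% and 4.90%). In bulk tissue, fewer cells of a type and less RNA per cell cannot be told apart. Mir122, the main miRNA of hepatocytes, held 2.94% of replicate 1 and 9.79% of replicate 2. Levels below are in CPM, where each library's own-strand reads over all miRNA genes were brought to the same sum. They are not divided by length, since each read is a short RNA.

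Of the 38 members, 33 had at least 1 CPM in both libraries, 25 at least 100 CPM and 7 at least 1000 CPM. The 5 highest, the same genes in both libraries, took 69.4% of the array's counts in replicate 1 and 74.8% in replicate 2 (72.1% ± 3.85, SD, n = 2). The 24 members with a mean below 500 CPM together took 7.23% and 7.76%. The highest member had 51.6 times the median member's mean level, 220 CPM. Ligation of adapters can favour some miRNAs over others, so an order of levels between genes holds for this kind of library.

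**Figure D1:**
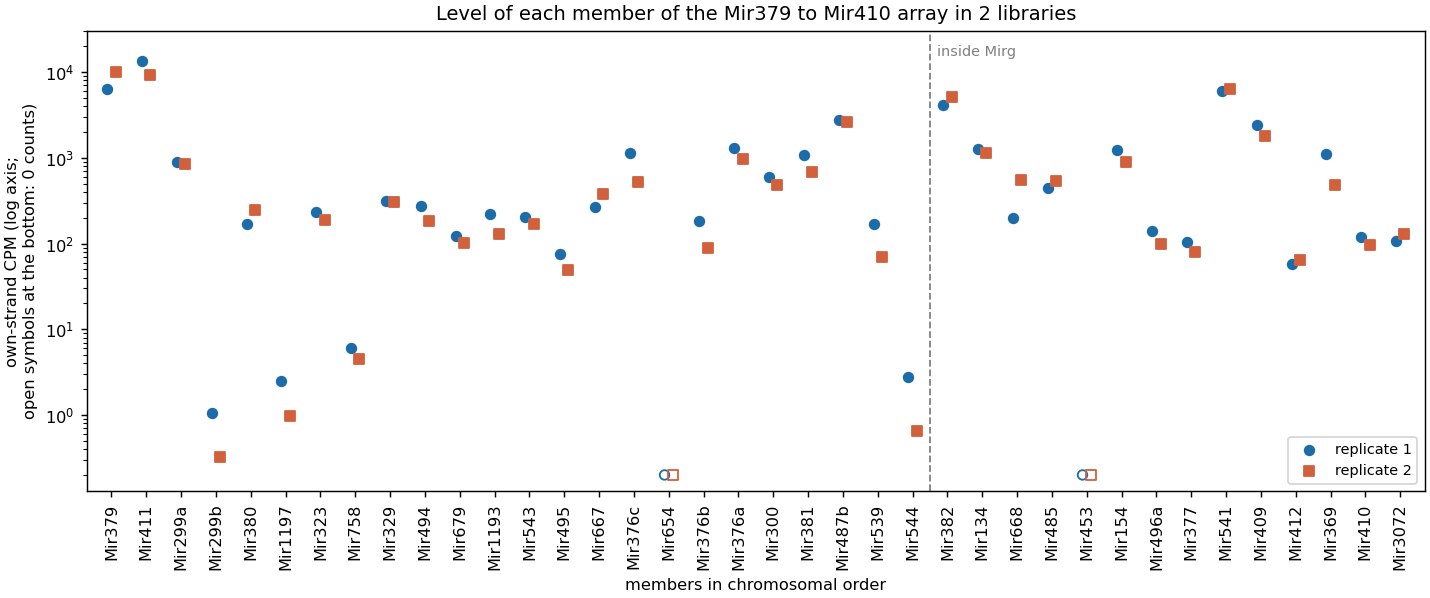
Own-strand CPM on a log axis for the 38 members in chromosomal order, circles for replicate 1 and squares for replicate 2; open symbols at the bottom are counts of 0 and the dashed line marks where the annotated Mirg transcript begins. Mir379 and Mir411 at the start and Mir382 and Mir541 further on stand above the genes around them, and Mir654 and Mir453 had 0 counts in both libraries.

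Mir411 (ENSMUSG00000065477.3, 109710175 to 109710256) had the highest mean. It had 13532 CPM in replicate 1 and 9164 CPM in replicate 2, a mean of 11348 ± 3088 CPM, rank 22 among all miRNA genes. Mir379 (ENSMUSG00000065498.4, 109709060 to 109709125), the first gene of the array, had 6418 CPM and 10130 CPM, a mean of 8274 ± 2625 CPM. Mir411 led in replicate 1 and Mir379 in replicate 2, so their order is not settled by these libraries. Of the reads of this pair, Mir379 held 32.2% in replicate 1 (95% Wilson interval 31.8 to 32.6) and 52.5% in replicate 2 (52.1 to 52.9), a measure that no scaling of the libraries can move. The hairpin of Mir411 shares a run of 18 bases with that of Mir758, and a read with several matches was assigned to no gene. No run of that length is shared within the RefSeq arms of these genes. Whether reads of Mir411 were lost in this way was not tested, so its level stays uncertain.

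Mir541 followed with 5962 CPM and 6419 CPM, then Mir382 with 4175 CPM and 5143 CPM, Mir487b with 2772 CPM and 2654 CPM, and Mir409 with 2420 CPM and 1786 CPM. From Mir541 down to Mir134 each gene was above the next in both libraries. Mir134, which limits the growth of dendritic spines through Limk1 in neurons, had 1273 CPM and 1154 CPM. Below it the library ranges of neighbours in the order overlapped throughout: Mir376a (1131 ± 243 CPM), Mir154 (1058 ± 241 CPM), Mir381 (885 ± 290 CPM), Mir299a (872 ± 46 CPM), Mir376c (836 ± 448 CPM), Mir369 (793 ± 432 CPM) and Mir300 (537 ± 84 CPM). Of the 13 pairs of neighbours in the order of the 14 members above 500 CPM, 9 had overlapping ranges.

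**Figure D2:**
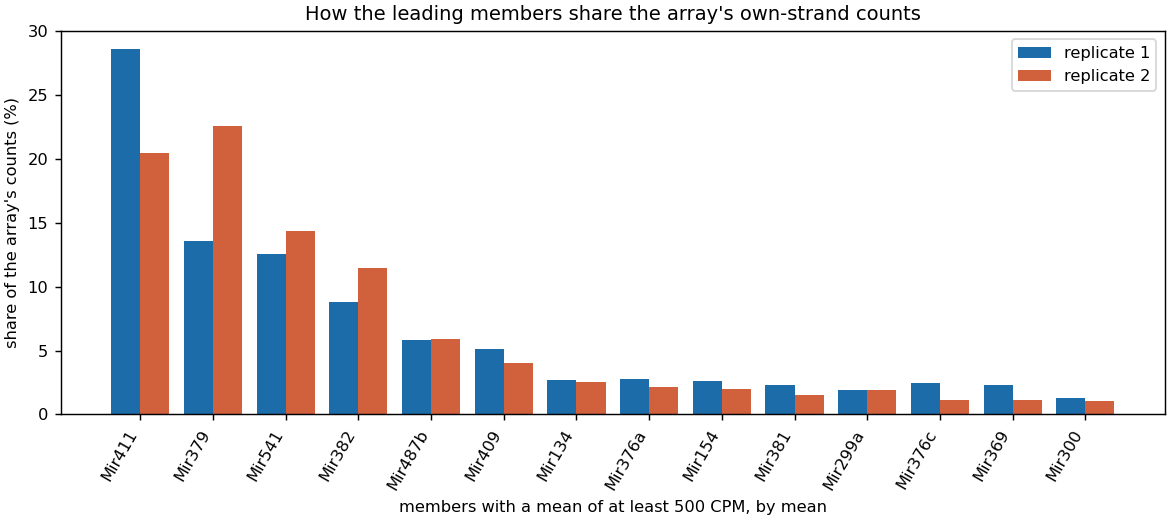
Bars give the percent of the array's own-strand counts held by each of the 14 members with a mean of at least 500 CPM, in replicate 1 (blue) and replicate 2 (orange). Mir411 held 28.6% and 20.5% and Mir379 13.6% and 22.6% in replicates 1 and 2, while Mir487b held 5.85% and 5.93%.

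Another 18 members had means from 61.1 to 492 CPM with at least 100 counts over both libraries. Mir485, known for acting on the synaptic vesicle protein Sv2a, was the highest of them at 447 CPM and 538 CPM. Mir329, a miRNA induced by neuronal activity, had 318 CPM and 306 CPM. Mir494 had 276 CPM and 182 CPM, and Mir410, which shares a 5p seed with it, had 119 CPM and 95.1 CPM. Mir1193, which shares a 5p seed with Mir379, had 219 CPM and 130 CPM.

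Few reads came from 6 members. Mir758 had 17 and 14 counts, Mir544 8 and 2, Mir1197 7 and 3, and Mir299b 3 and 1. Mir654 and Mir453 had 0 counts in both libraries, a result compatible with as much as 1.05 CPM in the first library and 0.974 CPM in the second (3 counts per library). Mir453 has its seed in common with the 5p arm of Mir496a, which had 141 CPM and 100 CPM. Mir758 and Mir1197 have a 5p seed in common, and both were near the floor. Mir758 shares a run of 18 bases with Mir411 in the hairpin but not within their RefSeq arms. Whether reads of Mir758 were left unassigned was not tested, so its low count does not settle its level.

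Level had no trend along the array: over the 35 members with at least 10 counts, Spearman's rho of mean CPM with chromosomal order was -0.03, given as a description of genes that share libraries and possibly transcripts. Counts were gathered in parts of it instead. Mir379 and Mir411 held 42.1% of the array's counts in replicate 1 and 43.1% in replicate 2. The 13 genes from Mir299a to Mir667 held 5.91% and 5.80%, and the 9 from Mir376c to Mir544 held 15.3% and 12.2%. The last 14, from Mir382 to Mir3072, held 36.6% and 38.9%. These bounds were set after the levels were seen.

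The last 14 members are those inside the annotated Mirg gene on the same strand, and the other 24 had no annotated host there. Mir382, Mir134, Mir668, Mir485 and Mir410 lie in an exon of every Mirg transcript that spans them. Mir453, Mir154, Mir496a, Mir541, Mir409 and Mir3072 lie in introns, and Mir377, Mir412 and Mir369 in one or the other by transcript. Both well expressed and scarce members occurred among the exonic ones, from Mir382 at 4659 ± 685 CPM to Mir410 at 107 ± 17 CPM. The intronic ones ranged from Mir541 at 6190 ± 324 CPM to Mir453 at 0.

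Reading the own strand matters for 6 members that lie opposite an annotated miRNA gene. Mir299a, Mir299b, Mir380, Mir376a, Mir539 and Mir409 held 14114 own-strand counts in replicate 1 and 12023 in replicate 2, which is 10.5% and 8.72% of the array. Counted without strand, the same 6 genes had 1 and 0. Mir409 alone had 6882 and 5500 own-strand counts, Mir376a 3704 and 2954, Mir299a 2573 and 2586, Mir380 477 and 766, and Mir539 475 and 216. The partner genes of Mir380, Mir376a, Mir539 and Mir409 had 0 own-strand counts in both libraries. Over the other 32 members the opposite strand had 0 counts in each library, and the count without strand equalled the own-strand count in 32 of 32.

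Mir299b is the reverse strand of the Mir299a hairpin, and RefSeq's 2 mature arms of Mir299b are contained whole in the arms of Mir299a. Its 3 and 1 own-strand counts are at or under the floor. Runs of 18 bases were shared with another hairpin by 7 members: Mir411, Mir299a, Mir299b, Mir758, Mir376c, Mir376b and Mir487b. Their levels are uncertain, because 27.5% of the reads of replicate 1 and 25.9% of replicate 2 mapped to several places and were not assigned to any gene. These runs were searched over whole hairpins and need not lie within a mature arm. They do for Mir299a and Mir299b, and for Mir376b and Mir376c, whose 5p arms have the same first 18 bases.

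Replicate 2 was then set against replicate 1 with an exact two-sided binomial test on own-strand counts, adjusted by the Benjamini-Hochberg method over all 444 genes with at least 10 counts. This test compares 2 libraries against counting error and says nothing of a condition. Of the 35 members that passed the count minimum, 22 were lower in replicate 2, 8 were higher and 5 did not pass. Of all 444 genes tested, 59% passed, with 28.6% higher in replicate 2 and 30.4% lower. The array's lower calls were a larger share than the background and its higher calls a smaller one. The median log2 ratio was -0.33 over the 35 members and 0.07 over all genes tested. Abundant genes pass such a test at smaller differences. With edgeR's exact test for negative binomial counts, given a spread estimated from both libraries (biological coefficient of variation 0.394), 0 members passed and 0 had an unadjusted p under 0.05.

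The 8 members higher in replicate 2 were Mir379, Mir380, Mir667, Mir382, Mir668, Mir485, Mir541 and Mir3072. Mir668 had the largest difference among them, with 573 counts (201 CPM) in replicate 1 and 1681 counts (546 CPM) in replicate 2, a log2 ratio of 1.44 (95% counting interval 1.30 to 1.58; adjusted p = 3.0e-106, exact binomial test). Mir379 had a log2 ratio of 0.66 (0.63 to 0.68) and Mir382 one of 0.30 (0.27 to 0.34). Mir541 differed least, by 0.11 (0.08 to 0.14), and it no longer passed with DESeq2 size factors (adjusted p = 0.058, exact binomial test) or counts without strand (adjusted p = 0.068). Mir3072 (0.28) no longer passed in these alternatives or with TMM factors, with adjusted p from 0.089 to 0.098 in the exact binomial test.

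At least 2-fold lower in replicate 2 were Mir376c, Mir376b, Mir539 and Mir369. At least 2-fold differences were called lower in 9.23% and higher in 8.11% of all genes tested. Mir539 had 475 counts (167 CPM) in replicate 1 and 216 counts (70.1 CPM) in replicate 2, a log2 ratio of -1.25 (95% counting interval -1.49 to -1.02). Mir369 had 3124 counts (1099 CPM) and 1504 counts (488 CPM), a log2 ratio of -1.17 (-1.26 to -1.08). Mir376c had 3279 counts (1153 CPM) and 1601 counts (520 CPM), a log2 ratio of -1.15 (-1.24 to -1.06). Mir376b had 522 counts (184 CPM) and 275 counts (89.3 CPM), a log2 ratio of -1.04 (-1.26 to -0.83). Adjusted p-values of these 4 ran from 9.36e-160 for Mir376c to 1.29e-22 for Mir376b in the exact binomial test. Mir376a, next to Mir376b, was lower by less, with a log2 ratio of -0.44 (-0.51 to -0.37).

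**Figure D3:**
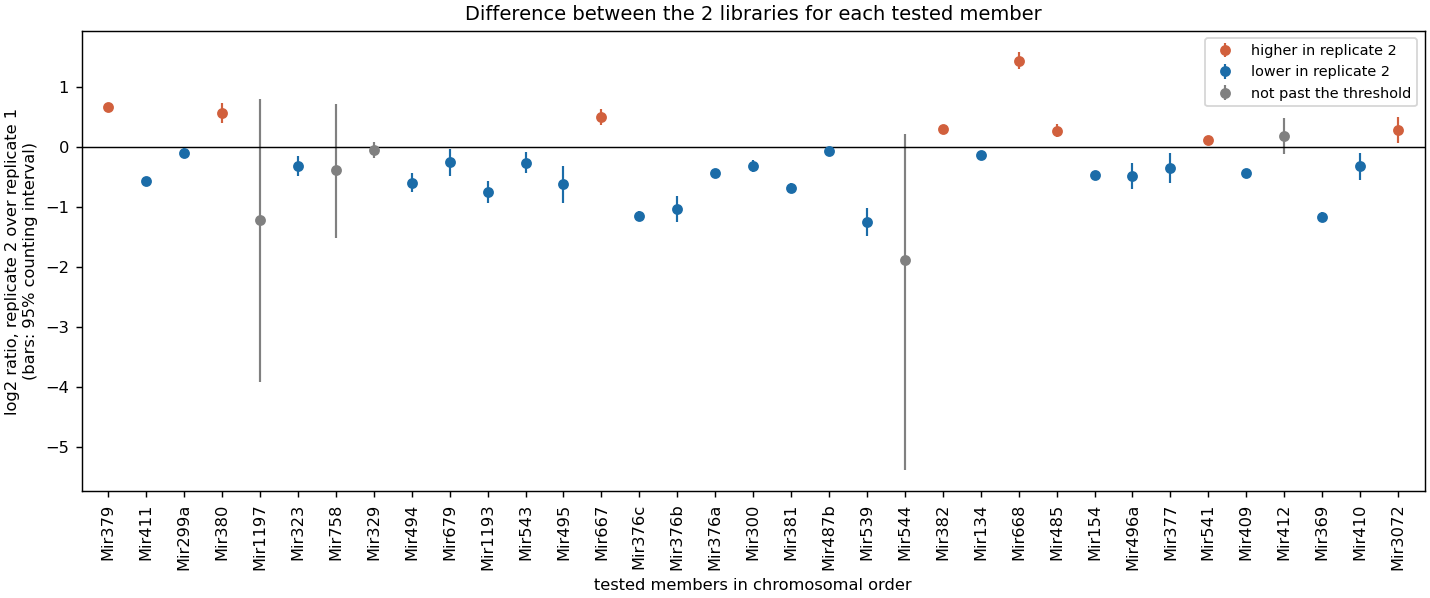
Log2 ratio of replicate 2 over replicate 1 for the 35 tested members in chromosomal order; bars are 95% counting intervals, and colour gives the call of the exact binomial test. Members above and below 0 lie next to each other, as Mir379 at 0.66 and Mir411 at -0.56 do.

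The remaining 18 lower calls ran from Mir1193 (-0.75) and Mir381 (-0.68) to Mir299a (-0.11) and Mir487b (-0.063). Mir411 was lower by -0.56 (-0.58 to -0.54). Once Mir122 was left out, 7 of the 22 lower calls no longer passed: Mir299a, Mir679, Mir543, Mir487b, Mir134, Mir377 and Mir410. There Mir487b was at 0.043 and 15 members were lower and 8 higher, beside 24.6% lower and 32.3% higher of all genes tested. Mir329 (-0.06), Mir412 (0.18), Mir758 (-0.39), Mir1197 (-1.21) and Mir544 (-1.88) did not pass. Of these, Mir329 had 904 and 942 counts and an interval of -0.19 to 0.08, while Mir544 rested on 10 reads. The ratio had no trend along the array either, with a Spearman's rho with order of 0.02. From Mir376c to Mir544, 7 of 8 tested members were lower and 0 higher, where 30.4% of all genes tested were lower. This stretch, bounded after its values were seen, also had the lowest median G and C content of the 4 parts of the array, at 38.3%.

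The ratio moved with base composition. Over the 35 tested members, Spearman's rho of the log2 ratio with the share of G and C in the annotated hairpin was 0.44, against 0.24 over the other 409 genes tested. Both are descriptions across genes that share 2 libraries. The hairpins called higher had a median of 45.6% G and C and those called lower 41.5%. Mir376c, at 29.1% the lowest of the array, was among the 4 members lower by 2-fold. Mir3072, at 72.3% the highest, was called higher, a call lost in some alternatives. Other members went the other way: Mir134 at 60.6% was called lower, and Mir382 at 39.5% and Mir379 at 40.9% were called higher. Of the 9 members with at least 50% G and C, 3 were higher and 4 lower (median log2 ratio -0.14). Of the 26 under 50%, 5 were higher and 18 lower (median -0.40). Among the other genes tested, 84 of 241 with at least 50% were higher and 47 lower. Under 50%, 35 of 168 of them were higher and 66 lower. The array as tested had a median of 43.3% and all genes tested 51.3%. With a straight line on G and C content over all tested genes removed, the median of the members was -0.20, against -0.33. The part of base composition in these differences was not tested beyond that fit.

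**Figure D4:**
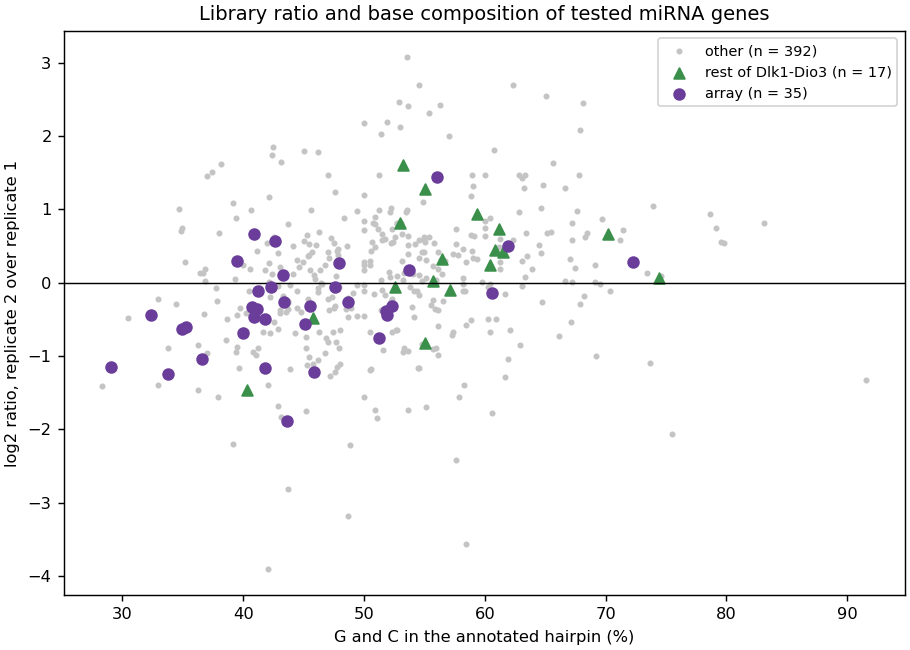
Log2 ratio of replicate 2 over replicate 1 against the percent of G and C in the hairpin for the 444 tested genes; filled circles are the 35 array members, triangles the 17 tested miRNAs of the rest of Dlk1-Dio3 and dots all others. The 6 members with the lowest G and C content lie below 0, a number set after the values were seen, and Mir382, next at 39.5%, lies at 0.30. The triangles sit further right than the array members, with a median of 56.5% against 43.3%.

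The other miRNAs of Dlk1-Dio3 were counted in the same way from a list of 21 genes, which lie on chromosome 12 outside the array and include those antisense to Rtl1. They held 3.41% of the counts in replicate 1 and 3.54% in replicate 2, with 17 of 21 detected, so that the array took 58.1% and 55.9% of the 2 lists together. The highest was Mir127, known for cutting the Rtl1 transcript, with 20668 CPM and 19269 CPM, above every member of the array in both libraries. Mir433 had 3663 CPM and 4596 CPM, and Mir431 3458 CPM and 4091 CPM. Of the 17 tested, 9 were higher in replicate 2 and 5 lower, where 28.6% of all genes tested were higher and 30.4% lower. The median log2 ratio was 0.33, with 0.073 over all genes tested and -0.33 in the array. Whether the 2 lists differ in their ratios was not tested, and their hairpins differed in G and C content, with medians of 56.5% and 43.3%.

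Markers of the cells a dissected adrenal gland can hold were given as values. The 4 genes of chromaffin and other neuroendocrine cells, Mir375, Mir7-1, Mir7-2 and Mir7b, were all detected and held 3.99% of the counts in replicate 1 and 3.78% in replicate 2. Most of this was Mir375, with a log2 ratio of 0.010 that did not pass, while the other 3 genes were called lower: Mir7b at -0.76, Mir7-1 at -0.67 and Mir7-2 at -1.19. No miRNA was used as a defining marker of the cortex. The neuron list held 0.114% and 0.0872% with 5 of 11 genes detected. Its genes at 0 in both libraries were Mir124a-1, Mir124a-3, Mir9-1 and Mir9-2, whose mature forms each have more than 1 genomic copy. Besides Mir122, the endothelial Mir126a moved between the libraries, from 8.43% to 4.52%, as did the striated muscle list (0.0929% and 0.334%, 4 of 9 detected, Mir133a-2 at 0) and the kidney and epithelium list (0.0460% and 0.0809%, 9 of 9 detected). Nearly all of the muscle list was Mir206, with 2612 of 2642 counts in replicate 1 and 10179 of 10279 in replicate 2. The copies of Mir1a and Mir133a had from 0 to 4 counts per library. Smooth muscle and fibroblast genes held 4.04% and 3.41% (5 of 6 detected, Mir199a-1 at 0), with 2 genes called higher and 2 lower. Blood genes held 0.153% and 0.157% (5 of 5 detected), with Mir150 called higher at 1.43 and Mir451a and Mir144 called lower at -1.28 and -1.56. Replicate 1 had 7503044 reads in its file, of which 2843734 were assigned on the own strand, and replicate 2 had 8907701 with 3080062. The part of these differences in the ratios of the array was not tested beyond leaving out Mir122.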

How the data were processed

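Raw counts per miRNA gene were deposited by the authors, made on mm10 with GENCODE M21 according to the file descriptions. The aligner and the counting tool were not given in the sources used here. Columns hold 3 kinds of count (strand ignored, own strand, opposite strand, a reading taken from the values), and special rows hold unassigned reads, which stayed out of the totals: unmapped 26.4% and 32.0%, multiply mapped 27.5% and 25.9%, outside genes 8.22% and 7.54% in replicates 1 and 2. The own strand was the main count.

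CPM used own-strand totals. Log2 ratios added 0.5 counts. A two-sided exact binomial test was run on each gene with 10 or more counts in all (Benjamini-Hochberg threshold 0.05). It was checked on counts simulated with counting error only, so the check does not cover further spread between libraries. edgeR could not estimate a spread within each library, so its exact negative binomial test and TMM factors, and DESeq2 size factors, were alternatives. Named members had a mean of at least 500 CPM, a called difference of at least 2-fold with 100 counts in mean, 0 counts, a strand-dependent count or a shared seed; further members were named after their values were seen. Other listed genes were limited to the 3 highest of the rest of Dlk1-Dio3 and the marker lists. Hairpins came from GENCODE M21 transcripts. The members and lists were chosen with earlier results of these data known. Analyses used Python 3.11.15, numpy 2.4.6, pandas 2.3.3, scipy 1.17.1, statsmodels 0.14.6, Biopython 1.88, R 4.3.3, edgeR 4.0.16 and DESeq2 1.42.0.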

Additional observations from a re-analysis of the deposited data

Results flagged for a closer look

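Signals outside the members' own-strand counts lay above what a count of 0 allows at 6 genes of the interval. Mir666, which lies between Mir1193 and Mir543 and is not a member, had 1417 own-strand counts over both libraries, 582 in replicate 1 (205 CPM) and 835 in replicate 2 (271 CPM). The opposite-strand column held 12382 counts at Gm24321, 6658 at Gm25252, 5158 at Mir299b, 1243 at Gm25750 and 691 at Gm44322 over both libraries. In each library these equal, or for Mir299b in replicate 1 fall 1 read short of, the own-strand counts of Mir409, Mir376a, Mir299a, Mir380 and Mir539, which these genes overlap on the other strand.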

How the results depend on the processing

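The mean share of the array was 4.61%, and it was 5.13% for counts without strand, 4.92% with Mir122 left out of the total, 5.04% with Mir378a left out and 3.01% without the members that share an 18-base run, from 4.48% to 4.73% with either replicate left out. Detected members numbered 33, with 33 to 36 in single replicates. The 5 highest members held 79.8% of the array without strand, against 72.1%, and 69.4% to 74.8% in single replicates. The rank correlation with order was 0.0021 over all 38 members and -0.05 to -0.01 in single replicates. Counting without strand gave 5 members higher and 18 lower of the 30 still tested, and Mir380, with 0 counts there, was not tested. The exact negative binomial test gave 0 higher and 0 lower of 35, and at the same settings it called 2 of all genes tested. That test takes its spread from the libraries it compares. The median log2 ratio stayed below 0 in every alternative run: -0.40 without strand, -0.40 with TMM factors, -0.40 with DESeq2 size factors, -0.22 with Mir122 left out, -0.34 with a minimum of 1 count and -0.20 with the G and C fit, which, like leaving out members with an 18-base run in the tests of the ratio, was added after the data were examined. With Mir122 left out, Mir487b turned from -0.063 to 0.043 and Mir329, not called in either, from -0.056 to 0.050. All 30 called members lost their call in the negative binomial test. The cause of these changes was not tested. No paired analysis was possible because there is 1 group with 2 libraries.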

Other observations

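Ratios between members within a library do not depend on its total. Mir376b made up 13.7% of the reads of Mir376b and Mir376c together in replicate 1 (95% Wilson interval 12.7 to 14.9) and 14.7% in replicate 2 (13.1 to 16.3), intervals that overlap, although the CPM of both genes differed by at least 2-fold between the libraries. These hairpins are the most alike of the array at 80.7% identity in a global alignment. The first 18 bases of their 5p arms are the same, and a read with several matches was assigned to no gene. Whether this moved the share of Mir376b was not tested. Mir300 made up 35.3% (34.0 to 36.7) and 41.2% (39.6 to 42.9) of its reads with Mir381, the second most alike pair at 73.8%. Mir668 and Mir485, neighbours in Mirg, differed more: Mir668 made up 31.1% (29.0 to 33.2) of their reads in replicate 1 and 50.4% (48.7 to 52.1) in replicate 2. Mir369 made up 31.2% (30.3 to 32.1) and 21.5% (20.5 to 22.5) of its reads with Mir409. Pairs were chosen after their values were seen.

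Likeness of sequence was set beside likeness of level. Over 666 pairs of members, Mir299b left out, the median hairpin identity was 50.6%, and Spearman's rho between identity and the absolute log2 difference in mean CPM was -0.05, as a description. Mir411 and Mir758, at 73.5% identity the third most alike pair, had 11348 CPM and 5.26 CPM. Their hairpins share a run of 18 bases that does not lie within the RefSeq arms of both. Whether reads of either were left unassigned was not tested.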
